A study of Mus musculus with 5 samples.

Results

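Atf4, the gene deleted in this study, and 4 of its neighbours on chromosome 15 (Rps19bp1, Cacna1i, Tab1 and Syngr1) were followed in brown adipose tissue (BAT) of cold-exposed mice. The 5 genes are 5 of the 52022 genes that could be assembled from the deposited tables, and their 19 annotated transcripts are 19 of 138191. They were selected on the comparison of genotypes in these same libraries: Cacna1i was the gene called there, and the others are Atf4 itself and genes near it. Values of the 5 genes in ATF4 BKO against WT mice are therefore given as a description, with no test. The grouping calls all 4 genes immediate downstream neighbours of Atf4, and the annotation bears this out for Rps19bp1 and Cacna1i only. Tab1 and Syngr1 lie upstream of Atf4, with other genes in between.

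ATF4 BKO mice carried Atf4 fl/fl alleles and a transgene in which the Ucp1 promoter drives Cre recombinase, so that Atf4 is removed from Ucp1-expressing thermogenic adipocytes and not from the other cells of the depot. WT mice were Atf4 fl/fl animals without the Cre transgene, and both groups therefore shared the floxed allele. The transgene and the loss of Atf4 came together in every ATF4 BKO mouse and cannot be told apart. Which exons the loxP sites flank is not given in the sources used here. All mice were labelled as males on a C57Bl/6J background aged 10 to 12 weeks and were kept at 4 °C for 3 days with food. RNA sequencing gave 1 library per mouse, 3 from ATF4 BKO and 2 from WT mice.

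The libraries held between 24698337 and 32452751 estimated counts. ATF4 BKO replicate 1 went against its label, with 4598 counts of Xist and 34 of 4 Y-linked genes, where the other libraries had 0 to 7 and 3284 to 4476. Library names carry either of 2 prefixes whose meaning is not given, shared by ATF4 BKO replicates 1 and 2 with WT replicate 1, and by ATF4 BKO replicate 3 with WT replicate 2. The brown adipocyte marker Ucp1 stood between 8039 and 10070 TPM (a level scaled for transcript length and library size) in every library. Other markers were less even, and Ppargc1a ran from 11.7 to 45.5 TPM. Of 10 brown adipocyte markers, 7 had a log2 fold change above 0 and 3 below it, with a median of 0.21. In CPM (counts scaled to library size), Adipoq and Fabp4 were higher in every ATF4 BKO library, where 8.95% of all genes are. In TPM, Fabp4 overlapped between genotypes. The 10 skeletal muscle markers summed to 4.86, 20.6 and 2.73 CPM in ATF4 BKO replicates 1, 2 and 3. In WT replicates 1 and 2 they summed to 74.9 and 1665 CPM. Each was lower in every ATF4 BKO library than in both WT libraries (10.6% of all genes tested were lower in this way). EdgeR called 0 of the 10, and all 10 had an unadjusted p under 0.05, where 5.23% of all genes did. DESeq2, which called 0.736% of all genes, called 5 of the 10. Markers of endothelial cells (770 to 1218 CPM summed), macrophages (156 to 1183 CPM) and fibroblasts (685 to 1966 CPM) varied between libraries. All 5 genes of each list had a log2 fold change above 0, with medians of 0.33, 0.44 and 0.51, against 0.0077 over all genes tested. In the 3 lists, 2, 0 and 1 genes were higher in CPM in every ATF4 BKO library, where 8.95% of all genes are. Of these 15 genes 0 were called by either tool, with 1 at an unadjusted p under 0.05, where 5.23% of all genes are.

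ATF4 is a basic leucine zipper transcription factor of the integrated stress response. Phosphorylation of the initiation factor eIF2 alpha slows general translation and raises translation of the Atf4 mRNA, and ATF4 then activates genes of amino acid import, amino acid synthesis and one-carbon metabolism, often through elements that it binds together with C/EBP proteins. Rps19bp1 encodes a small nucleolar protein that binds ribosomal protein S19 and is also known as a regulator of the deacetylase SIRT1. Cacna1i encodes the pore-forming alpha1 subunit of a T-type calcium channel, which opens at low voltage and is best known from neurons. TAB1 is an activating partner of the kinase TAK1, and synaptogyrin 1, from Syngr1, is a membrane protein of synaptic vesicles.

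In the GRCm38 genome with GENCODE M21 annotation, Atf4 (ENSMUSG00000042406.8) runs on the plus strand at chr15:80255184-80257541. Rps19bp1 (ENSMUSG00000051518.8) lies on the minus strand at chr15:80260615-80264315, so that the 2 genes face each other tail to tail across 3.1 kb with no annotated gene between them. Cacna1i (ENSMUSG00000022416.15) follows on the plus strand at chr15:80287238-80398279. Its start lies 22.9 kb from the start of Rps19bp1, head to head, and 29.7 kb past the end of Atf4. Upstream, Tab1 (ENSMUSG00000022414.8, chr15:80133127-80161707) ends 93.5 kb before Atf4, and Syngr1 (ENSMUSG00000022415.12, chr15:80091334-80119501) ends 135.7 kb before it, both on the plus strand. Mgat3 and Mief1 are among the 5 annotated genes between Tab1 and Atf4, and Mief1 ends 1.8 kb before the Atf4 start.

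**Figure D1:**
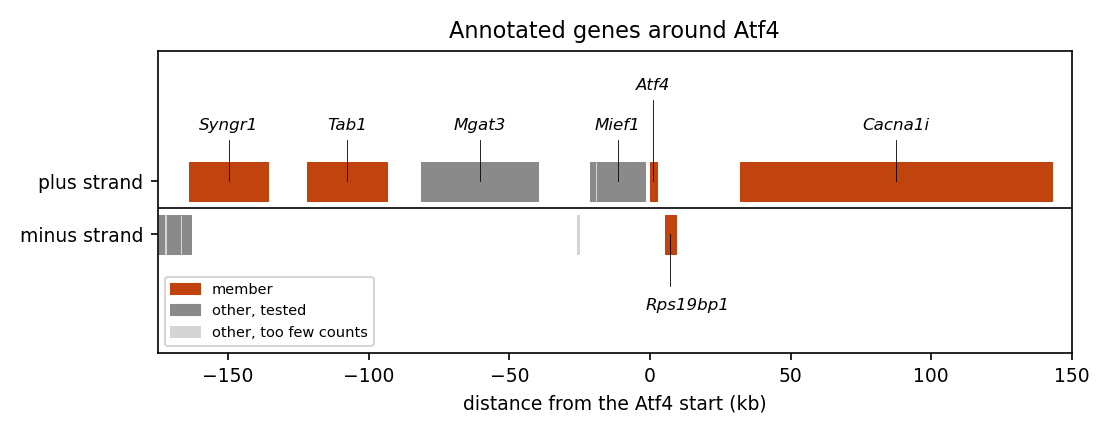
Annotated genes around Atf4 with a transcript in the deposited tables, drawn to scale by distance in kb from the Atf4 start. Plus-strand genes are above the line and minus-strand genes below it. Orange boxes are the 5 members, dark grey boxes are other genes with enough counts to be tested, and light grey boxes are genes with too few counts. Rps19bp1 and Cacna1i are the nearest genes downstream of Atf4, whereas Tab1 and Syngr1 are upstream beyond Mief1 and Mgat3.

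The bases just upstream of Atf4, Rps19bp1 and Cacna1i are shown because Atf4 and Rps19bp1 moved together and Cacna1i moved the other way. They are RefSeq sequences of GRCm38.p6 read 5′ to 3′ on each gene's own strand, ending at the base before the annotated start. The windows are chr15:80254934-80255183 (plus strand, 250 bases) for Atf4, chr15:80264316-80264556 (minus strand, 241 bases) for Rps19bp1 and chr15:80286988-80287237 (plus strand, 250 bases) for Cacna1i. Capitals mark matches, on either strand, to CCAAT or to TGACG, the core of the cAMP response element.
Atf4: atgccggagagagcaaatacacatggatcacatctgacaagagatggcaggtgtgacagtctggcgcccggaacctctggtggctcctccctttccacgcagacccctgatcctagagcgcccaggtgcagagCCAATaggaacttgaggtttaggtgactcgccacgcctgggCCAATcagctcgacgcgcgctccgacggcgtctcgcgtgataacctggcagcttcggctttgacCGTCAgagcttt
Rps19bp1: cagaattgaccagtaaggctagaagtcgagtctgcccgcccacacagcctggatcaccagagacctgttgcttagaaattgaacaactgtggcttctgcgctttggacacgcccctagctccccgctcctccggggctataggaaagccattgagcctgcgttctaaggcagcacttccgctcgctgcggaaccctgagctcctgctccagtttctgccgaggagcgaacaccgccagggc
Cacna1i: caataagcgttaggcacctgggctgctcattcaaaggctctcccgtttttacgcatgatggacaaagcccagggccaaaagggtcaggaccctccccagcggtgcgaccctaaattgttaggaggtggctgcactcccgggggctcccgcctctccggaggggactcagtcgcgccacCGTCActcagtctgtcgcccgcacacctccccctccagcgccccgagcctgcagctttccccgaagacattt

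Each sequence was searched on both strands, over 250 bases before the RefSeq start, for 5 sets of letters. The Atf4 window held CCAAT on the plus strand from positions -117 and -76, counted from the start, a string present in 33.8% of the 32851 windows of this length in the RefSeq table. TGACG was found on the minus strand from position -12 at Atf4 and from position -72 at Cacna1i, and 17.8% of all windows hold it. TGATGNAA, the C/EBP-ATF element, was in none of the 3 windows and is in 3.45% of all. TGACGTCA, which contains TGACG, and the TATA box letters TATAA were in none of them either, against 1.55% and 22.8% of all windows. The Rps19bp1 window held none of the 5. With 18, 14 and 16 CpG dinucleotides at Atf4, Rps19bp1 and Cacna1i, the 3 windows were richer in CpG than the median window, which has 6.

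Atf4, the deleted gene, had 286 and 226 CPM in WT replicates 1 and 2 and 32.6, 52.6 and 23.5 CPM in ATF4 BKO replicates 1, 2 and 3. These values rest on 9028 and 7674 counts in WT and on 739, 1478 and 697 counts in ATF4 BKO. The groups did not overlap, and transcripts remained in every ATF4 BKO library. The mean was 36.2 ± 14.9 CPM (SD, n = 3) in ATF4 BKO and 256 ± 41.9 CPM (SD, n = 2) in WT, a log2 fold change of -2.82 (standard error, SE, 0.34). Relative to the WT mean, 12.7%, 20.5% and 9.17% of Atf4 was left in the 3 ATF4 BKO libraries. In bulk tissue, fewer cells of a type and less RNA per cell cannot be told apart.

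Rps19bp1 had 15.5 and 12.3 CPM in WT and 2.47, 4.20 and 1.92 CPM in ATF4 BKO, from 489, 418, 56, 118 and 57 counts. Here too every ATF4 BKO library lay below both WT libraries. The mean was 2.86 ± 1.19 CPM (SD, n = 3) in ATF4 BKO and 13.9 ± 2.22 CPM (SD, n = 2) in WT, with a log2 fold change of -2.28 (SE 0.36). The level left was 17.8%, 30.2% and 13.8% of the WT mean. The 5 libraries fell in the same order for Rps19bp1 as for Atf4, with ATF4 BKO replicate 2 the highest and replicate 3 the lowest of the ATF4 BKO libraries.

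The 2 genes nevertheless did not fall by the same factor. Rps19bp1 counts were 5.42% and 5.45% of Atf4 counts in the WT libraries and 7.58%, 7.98% and 8.18% in the ATF4 BKO libraries. In TPM the ratio was 13.3% and 13.4% in WT and 19.1%, 21.7% and 20.2% in ATF4 BKO. On both scales the ratio was nearly constant within a genotype and higher in every ATF4 BKO library.

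Cacna1i moved in the opposite direction, from 0.063 and 0.207 CPM in WT to 67.2, 98.8 and 79.4 CPM in ATF4 BKO. Only 2 and 7 counts stood behind the WT values, with exact 95% Poisson intervals of 0.242 to 7.22 and 2.81 to 14.4 counts, against 1521, 2775 and 2357 counts in ATF4 BKO. The gene was thus close to absent from WT BAT at this depth and present in each ATF4 BKO library. The mean was 81.8 ± 15.9 CPM (SD, n = 3) in ATF4 BKO and 0.135 ± 0.101 CPM (SD, n = 2) in WT. Pooled counts of 6653 and 9, scaled to the summed library sizes of each group, gave a ratio of 602, with an exact 95% interval from 317 to 1317 that covers counting error only. The fitted log2 fold change was 9.18 (SE 0.42, calculated back from edgeR's F statistic), and DESeq2 gave 9.22 with a larger SE of 0.54. With so few WT counts the edgeR value moved to 8.61 without WT replicate 1 and to 10.2 without WT replicate 2.

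Among the 16450 genes tested across the series, Cacna1i had the second highest log2 fold change, after the pseudogene Rps15a-ps7 with 0 counts in WT and at most 3.52 CPM in ATF4 BKO. It was the gene called by edgeR's quasi-likelihood test at an adjusted p under 0.05, 1 of 16450 or 0.00608% of genes, and this call is what led to the choice of these genes. DESeq2 called 121 genes, or 0.736%. Every ATF4 BKO library was below both WT libraries for 10.6% of genes and above both for 8.95%. Of 70 tested genes with at most 10 WT counts in all, 6 had a mean of at least 1 CPM in ATF4 BKO: Cacna1i, Capn11, Gm13304, Gm14698, Gm49391 and Rps15a-ps7, named after their values were seen.

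**Figure D2:**
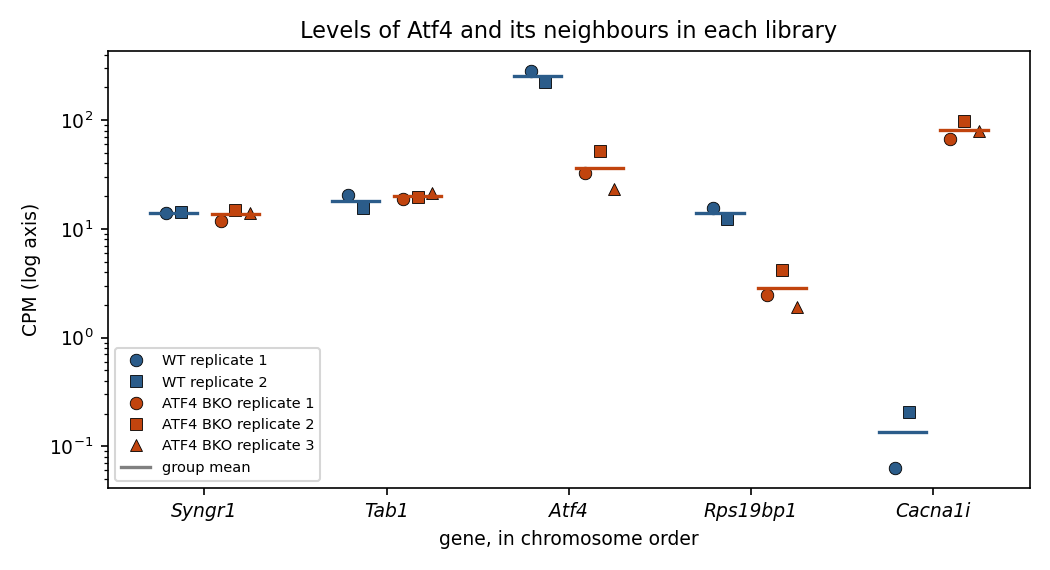
CPM of the 5 genes on a log axis, in chromosome order, with 1 symbol per library (blue for WT, orange for ATF4 BKO) and a bar at each group mean. Atf4 and Rps19bp1 are lower in every ATF4 BKO library, Cacna1i rises from at most 0.207 CPM to at least 67.2 CPM, and Syngr1 and Tab1 overlap between genotypes.

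The upstream genes did not separate the genotypes. Tab1 had 20.4 and 15.5 CPM in WT and 19.0, 19.9 and 21.2 CPM in ATF4 BKO. Its log2 fold change was 0.16 (SE 0.17), and it was 0.38 without WT replicate 1 and -0.043 without WT replicate 2, so that WT replicate 2, the lower WT library, set its sign. Syngr1 had 13.9 and 14.3 CPM in WT and 11.9, 14.99 and 14.1 CPM in ATF4 BKO, with a log2 fold change of -0.046 (SE 0.17). The values of both genes overlapped between genotypes.

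Levels can be compared between genes in TPM. In WT, Atf4 was highest with 227 and 188 TPM, above Rps19bp1 with 30.1 and 25.3 TPM and Syngr1 with 24.0 and 26.5 TPM, which overlapped. Tab1 followed with 10.2 and 9.47 TPM, and Cacna1i was last with 0.066 and 0.027 TPM. In ATF4 BKO the order changed. Atf4 had 22.1, 40.5 and 16.4 TPM and overlapped Syngr1, which had 17.7, 25.0 and 20.8 TPM. Cacna1i had 10.8, 16.6 and 10.04 TPM and overlapped Tab1, which had 8.57, 10.4 and 10.03 TPM. Rps19bp1 was the lowest in mean, with 4.22, 8.80 and 3.32 TPM, and its highest library overlapped the lowest of Tab1. By TPM, Cacna1i passed 73.5% to 78.2% of the genes detected in an ATF4 BKO library and 5.20% to 13.4% of those detected in a WT library.

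These differences kept their direction without the libraries that stood apart. Without ATF4 BKO replicate 1, the library at odds with its sex label, the log2 fold changes were -2.75 for Atf4, -2.18 for Rps19bp1 and 9.30 for Cacna1i. WT replicate 2 held more skeletal muscle RNA than WT replicate 1 and had less Atf4 and Rps19bp1. Without it, the log2 fold change of Rps19bp1 was -2.45, and that of Atf4 was also larger in size than with it. Within the first name prefix the differences in log2 CPM were -2.78, -2.24 and 9.27 for Atf4, Rps19bp1 and Cacna1i, and within the second, with 1 library per genotype, they were -3.27, -2.64 and 8.17.

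Transcript estimates show which forms carried these counts. Atf4-201, the coding form of 1725 bases in 3 exons, held 717, 1407 and 676 estimated counts in ATF4 BKO and 8895 and 7573 in WT. Atf4-203, a retained-intron form, held 22.0, 70.8 and 21.3 in ATF4 BKO and 133 and 101 in WT, and Atf4-202 held 0 in every library. The retained-intron form was 3.61% ± 1.02 of Atf4 counts in ATF4 BKO (SD, n = 3) and 1.39% ± 0.11 in WT (SD, n = 2), and the coding form 96.4% ± 1.02 and 98.6% ± 0.11. Both forms were thus lower in each ATF4 BKO library, the coding form more so. The 268 words of 31 bases by which Kallisto can tell Atf4-201 from the other forms lie in exon 1, almost all between its bases 73 and 369.

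For Rps19bp1, the coding form Rps19bp1-201 of 838 bases carried 92.8% ± 5.24 of counts in ATF4 BKO (SD, n = 3) and 97.7% ± 0.24 in WT (SD, n = 2). Rps19bp1-203, annotated as a target of nonsense-mediated decay, held 3.00, 14.0 and 1.77 estimated counts in ATF4 BKO and 5.10 and 3.56 in WT. Its share was 5.35%, 11.9% and 3.10% in ATF4 BKO and 1.04% and 0.851% in WT, higher in every ATF4 BKO library but resting on 14.0 counts or fewer in each. The fall of Rps19bp1 was in the coding form, which went from 479 and 408 estimated counts in WT to 53.0, 103 and 55.2 in ATF4 BKO.

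Cacna1i was assigned almost wholly to Cacna1i-202, a coding transcript of 9781 bases in 37 exons with a reading frame of 6597 bases. This form held 1496, 2728 and 2337 estimated counts in ATF4 BKO, or 98.6% ± 0.48 of the gene (SD, n = 3), and 0 and 7 in WT. Cacna1i-201, a shorter coding form of 779 bases, held 20.0, 42.5 and 20.0 in ATF4 BKO, and the other 4 forms held at most 5.19 in any library. All 31-base words of the other 5 forms also occur in another form, and the 2828 words found in Cacna1i-202 alone lie in its first 326 bases, in exon 1, and from base 7220 to its end, in exon 37. The choice between Cacna1i-202 and Cacna1i-205, a form of 6913 bases also in 37 exons that held 0 counts in every ATF4 BKO library, therefore rests largely on reads in those end regions. With 9751 words in Cacna1i-202 and 6883 in Cacna1i-205, some inner words of Cacna1i-202 are also missing from Cacna1i-205. Summed in TPM, which weights short forms more, Cacna1i-202 was 75.4% ± 11.1 of the gene.

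Tab1-201, the coding form of 2964 bases in 11 exons, carried 97.4% ± 0.13 of Tab1 counts in ATF4 BKO and 97.1% ± 1.65 in WT. Syngr1 was divided between Syngr1-202, with 82.9% ± 2.34 of counts in ATF4 BKO and 86.0% ± 1.79 in WT, and the longer Syngr1-201, with 16.2% ± 2.07 and 13.4% ± 1.68 (SD, n = 3 and n = 2 throughout). The shares of both Syngr1 forms overlapped between genotypes.

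**Figure D3:**
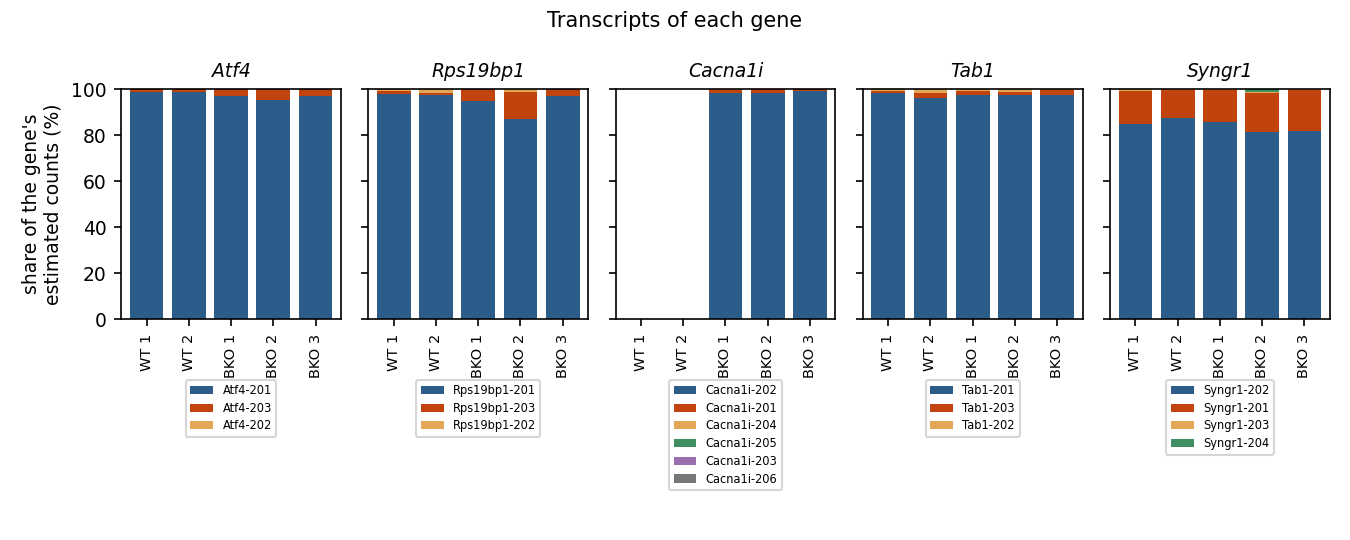
Share in percent of each gene's estimated counts carried by each annotated transcript, with 1 bar per library (WT 1 and 2, BKO 1, 2 and 3). Cacna1i is drawn for the ATF4 BKO libraries only, since the WT libraries held 2 and 7 counts. A single coding form carries most of every gene, and Syngr1 is the gene with the largest second form, Syngr1-201.

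Sequence shared with other genes was searched next. None of the 31-base words of Atf4, Rps19bp1, Tab1 or Syngr1 transcripts occurs in a transcript of another gene. Of 9913 words of Cacna1i, 0.797% do, 53 of them in Cacna1g and 28 in Cacna1h, the other T-type alpha1 subunits. The longest stretches that Cacna1i-202 shares with each are shown because reads from them could be assigned to either gene. They lie at chr15:80369688-80369755 in exon 12 (68 bases, with Cacna1g) and chr15:80378189-80378238 in exon 25 (50 bases, with Cacna1h), on the plus strand of GRCm38.
Cacna1i and Cacna1g: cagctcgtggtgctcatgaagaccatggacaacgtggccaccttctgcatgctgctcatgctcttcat
Cacna1i and Cacna1h: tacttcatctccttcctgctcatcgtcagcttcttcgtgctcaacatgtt

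Cacna1g held 44, 57 and 42 counts in ATF4 BKO and 49 and 59 in WT, and Cacna1h held 29, 33 and 35 counts in ATF4 BKO and 19 and 26 in WT. Neither gene had counts of the order seen for Cacna1i in any library. In CPM, Cacna1h was above both WT libraries in every ATF4 BKO library, with a log2 fold change of 0.82 (SE 0.32, edgeR adjusted p = 0.911), and was not called. In TPM the direction was the opposite, with 0.215, 0.379 and 0.346 TPM in ATF4 BKO and 0.396 and 0.462 TPM in WT. The part that the shared words have in it was not tested.

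Voltage-gated calcium channels combine 1 pore-forming alpha1 subunit with auxiliary subunits that set their transport and gating. Besides Cacna1i, all 9 alpha1 genes were tested, and 0 were called by edgeR or by DESeq2, with 2 at an unadjusted p under 0.05 (Cacna1h and Cacna1s). Over all genes, edgeR called 0.00608%, DESeq2 called 0.736%, and 5.23% had an unadjusted p under 0.05. Cacna1a, a P/Q-type subunit, was the highest in mean TPM, with 20.1 and 11.7 TPM in WT and 8.85, 11.2 and 18.4 TPM in ATF4 BKO, which overlapped. Cacna1s, the skeletal muscle subunit, had 20 and 801 counts in WT and 1, 10 and 2 in ATF4 BKO (log2 fold change -6.21, SE 1.56, edgeR adjusted p = 0.771, and from 0.0365 to 0.997 over the alternatives, the lowest without WT replicate 1). Without WT replicate 2 its log2 fold change was -1.98, and the skeletal muscle markers moved with it. Summed with the other 9 subunits, Cacna1i made up 0.284% and 0.115% of alpha1 TPM in WT and 47.7%, 52.6% and 32.0% in ATF4 BKO. These shares depend on the scale, since TPM weights short forms more. In CPM, the other 9 subunits summed to 26.1 and 44.8 in WT and to 20.9, 23.6 and 29.4 in ATF4 BKO. Cacna1i alone, with 67.2, 98.8 and 79.4 CPM, was above that sum in every ATF4 BKO library. CPM is not scaled for transcript length, however, and gives long forms such as Cacna1i-202 more weight. In TPM, Cacna1i was above the sum of the other 9 in ATF4 BKO replicate 2 only.

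**Figure D4:**
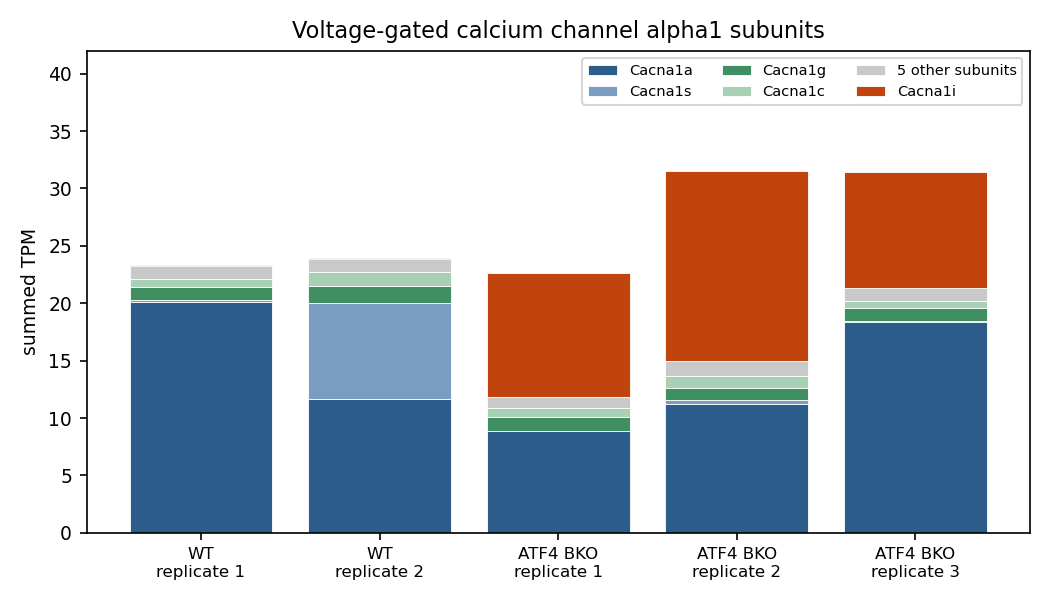
Summed TPM of the voltage-gated calcium channel alpha1 subunits in each library, stacked by gene, with Cacna1i in orange on top. Cacna1i adds between 10.04 and 16.6 TPM in each ATF4 BKO library and is not visible in WT, and Cacna1s stands out in WT replicate 2.

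Of 16 auxiliary subunit genes, 9 had enough counts to be tested. EdgeR called 0 of them, DESeq2 called 0 and 0 had an unadjusted p under 0.05, against 0.00608%, 0.736% and 5.23% of all genes. The median log2 fold change of the 9 was 0.23, against 0.0077 over all genes tested. The 3 highest in mean TPM were Cacnb3, with 4.04 and 4.18 TPM in WT and 4.11, 3.55 and 2.96 TPM in ATF4 BKO, Cacnb1 and Cacna2d1. Cacnb1 and Cacna2d1 were highest in WT replicate 2, the library with the most skeletal muscle RNA. In CPM, Cacnb3, Cacna2d2 and Cacnb2, 3 of the 9, were higher in every ATF4 BKO library, where 8.95% of all genes are, and Cacna2d1 was lower in every one. For Cacnb3 the sign depended on the scale, with a log2 fold change of 0.25 (SE 0.21) on counts and of -0.18 and -0.22 on log2(TPM + 1) and log2(TPM + 0.1). The other 7 auxiliary genes had too few counts to be tested. Cacng1, a skeletal muscle subunit, had 4 and 110 counts in WT and 0, 7 and 1 in ATF4 BKO, and Cacng6 had 2 and 46 counts in WT and 0 in each ATF4 BKO library.

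Since Cacna1i is best known from neurons, markers of nerve tissue were read in the same libraries. The 10 neuronal markers summed to 19.9 and 13.3 CPM in WT and to 12.5, 19.3 and 14.3 CPM in ATF4 BKO, which overlapped. Elavl4 and Dbh were at 0 in every library, Snap25 had at most 2 counts, Syt1 at most 1 and Th at most 3. The 6 Schwann cell markers summed to 275 and 233 CPM in WT and to 295, 239 and 262 CPM in ATF4 BKO, most of it S100b, which other cells also express. Sox10, a transcription factor of Schwann cells, was higher in every ATF4 BKO library, by a log2 fold change of 0.73 (SE 0.29, edgeR adjusted p = 0.911), and was not called. The part of these markers in the Cacna1i values was not tested.

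To see how far along the chromosome the differences reached, the genes within 1 Mb of Atf4 on either side were examined. Of 72 annotated genes with a transcript in the deposited tables, 36 had enough counts, 31 of them outside the 5 members. Of those 31, edgeR called 0, against 0.00608% of all genes, and DESeq2 called 0, against 0.736%. An unadjusted p under 0.05 was found for 1 (Pdgfb), against 5.23% of all genes. At these shares, 0 calls among 31 genes do not set them apart from other genes. The log2 fold changes of the 31 ranged from -0.46 at Gm16576 to 0.67 at Fam83f with a median of 0.026. None was lower in every ATF4 BKO library, where 10.6% of all genes are, and 4 (Fam227a, Cbx6, Pdgfb and Sgsm3, or 12.9%) were higher in all of them, where 8.95% of all genes are.

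The nearest tested genes outside the members gave the following values. Mief1, which encodes a receptor for the mitochondrial fission protein DRP1 and ends 1.8 kb before Atf4, had 44.0 CPM in ATF4 BKO and 48.5 CPM in WT in mean (log2 fold change -0.14, SE 0.13, edgeR adjusted p = 0.936). Mgat3, a glycosyltransferase gene 39.7 kb upstream, had means of 1.16 and 1.06 CPM (log2 fold change 0.11, SE 0.53). Beyond Syngr1, the ribosomal protein gene Rpl3 and the growth factor gene Pdgfb had log2 fold changes of -0.19 (SE 0.19) and 0.34 (SE 0.11, edgeR adjusted p = 0.911). Downstream of Cacna1i, the next gene with enough counts was Grap2, an adaptor of T cell signalling that starts 315.1 kb past Atf4, with 1.86, 2.46 and 2.09 CPM in ATF4 BKO and 0.760 and 2.66 CPM in WT (log2 fold change 0.32, SE 0.53). Fam83f, Tnrc6b, which encodes a scaffold of microRNA silencing, and Adsl, a purine synthesis enzyme, had log2 fold changes of 0.67, 0.056 and -0.26 (SEs 0.79, 0.14 and 0.15). Grap2 and Fam83f depended on which WT library was used, with log2 fold changes of 1.47 (SE 0.43, edgeR adjusted p = 0.307) and 2.25 (SE 0.86, also not called) without WT replicate 2 and of -0.30 and -0.063 without WT replicate 1. The 4 annotated genes between Cacna1i and Grap2 with a transcript in the deposited tables had too few counts to be tested.

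**Figure D5:**
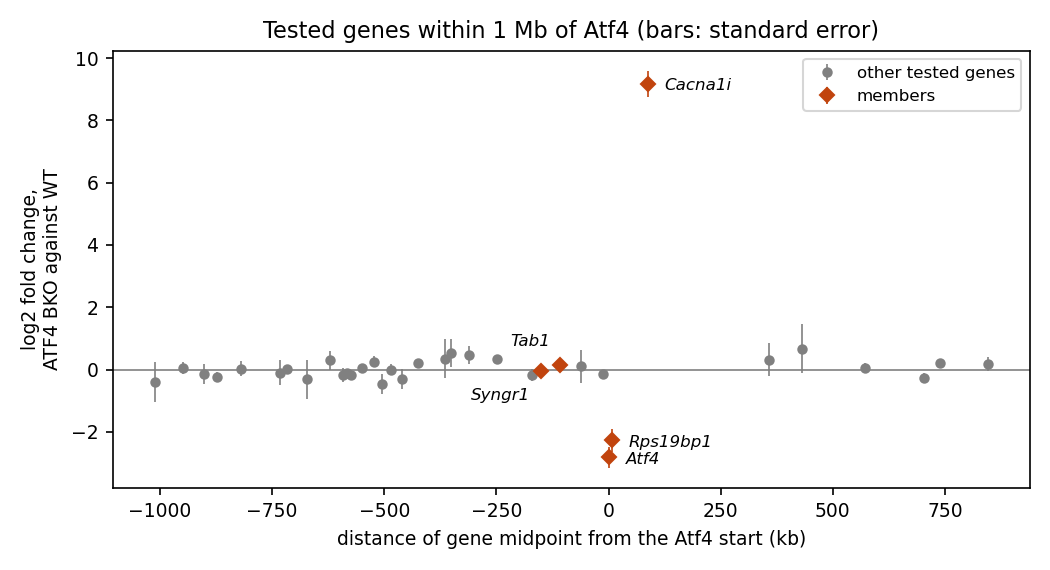
Log2 fold change of ATF4 BKO against WT for the 36 tested genes within 1 Mb of Atf4, by distance in kb of the gene midpoint from the Atf4 start, with bars for the standard error. Cacna1i (9.18), Rps19bp1 (-2.28) and Atf4 (-2.82) stand apart, and the 31 genes outside the members lie between -0.46 and 0.67.

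Partners of the members gave the following. Rps19, whose product RPS19BP1 binds, had 705 and 571 TPM in WT and 451, 668 and 487 TPM in ATF4 BKO, and Sirt1 had 4.27 and 7.09 TPM in WT and 5.43, 9.08 and 4.81 TPM in ATF4 BKO. Both overlapped between genotypes, and edgeR's adjusted p was 0.936 and 0.942. Of 10 genes of the TAB1-TAK1 complex and its kinases, edgeR called 0 and DESeq2 called 0, against 0.00608% and 0.736% of all genes. An unadjusted p under 0.05 was found for 1 (Tab2, log2 fold change -0.34, SE 0.11), against 5.23% of all genes. The median log2 fold change of the 10 was -0.084. The 3 most abundant were Mapk14, Map2k3 and Chuk, with log2 fold changes of 0.14, -0.46 and -0.11 (SEs 0.19, 0.19 and 0.14). Of 7 synaptogyrin and synaptophysin genes, 4 were tested. Of these, 0 were called by either tool and 0 had an unadjusted p under 0.05, with the same shares of all genes to compare. The most abundant, Sypl, Syngr2 and Syp, had log2 fold changes of 0.12, -0.033 and 0.14 (SEs 0.19, 0.18 and 0.22).

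Genes that ATF4 is known to activate were read beside Atf4. Of 22 textbook targets, 20 had a log2 fold change below 0 (Ddit4 and Stc2 had 0.92 and 0.23), and 15 were lower in every ATF4 BKO library than in both WT libraries, where 10.6% of all genes are. The median log2 fold change of the list was -1.72. EdgeR called 0 of the 22, with a smallest adjusted p of 0.671, and 15 had an unadjusted p under 0.05, where 5.23% of all genes do. DESeq2, which called 0.736% of all genes, called 10, all lower: Asns, Psat1, Phgdh, Mthfd2, Trib3, Chac1, Slc7a1, Slc6a9, Fgf21 and Atf5. Atf5, a related stress factor and the most abundant of the list, had 317 and 223 TPM in WT and 58.9, 94.6 and 67.1 TPM in ATF4 BKO (log2 fold change -1.73, SE 0.23, DESeq2 adjusted p = 1.71e-07). Eif4ebp1, a translation repressor, had a log2 fold change of -0.73 (SE 0.20, DESeq2 adjusted p = 0.215), and Asns, asparagine synthetase, one of -1.44 (SE 0.25, DESeq2 adjusted p = 0.00068). Over the alternatives the adjusted p ranged from 1.71e-07 to 0.997 for Atf5, from 0.161 to 1 for Eif4ebp1 and from 0.00068 to 0.997 for Asns.

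Genes whose levels ran most like those of the members were sought among 1644 genes with a mean of at least 5 CPM and a range of at least 1 in log2 CPM over the 5 libraries. For Atf4, the highest Pearson's r was with Rps19bp1 (0.998), followed by Trib3 (0.988), Bin1 (0.985), Mthfd2 (0.982) and Atf5 (0.977). For Rps19bp1, they were Atf4, Trib3 (0.993), Bin1 (0.993), Mthfd2 (0.980) and the cationic amino acid transporter gene Slc7a1 (0.979). By Spearman's rho, 44 genes, Rps19bp1 among them, tied with Atf4 at 1, so that the place of Rps19bp1 ahead of the others holds for Pearson's r alone. For Cacna1i, they were Bnip3 (0.986), Gnmt (0.963), Tbc1d9 (0.953), Hey1 (0.951) and Tbx3 (0.945), all higher in ATF4 BKO by log2 fold changes between 0.72 and 1.39. These coefficients describe 5 libraries that share the division into genotypes and carry no test.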

How the data were processed

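BAT RNA of 3 ATF4 BKO and 2 WT mice was analysed. For each mouse the authors quantified reads with Kallisto 0.45.0 and deposited estimated counts and TPM per transcript, not normalized between mice. The transcript annotation and the strand setting of the counter are not given in the sources used here. Transcripts were joined to GENCODE M21 by identifier (138191 of 141450 matched) and estimated counts were summed per gene and rounded. All 19 member transcripts matched. Genes reaching 10 counts in 2 or more libraries were fitted with edgeR 4.0.16 (TMM, quasi-likelihood, genotype only, Benjamini-Hochberg over 16450 genes), and DESeq2 1.42.0 and limma 3.58.1 were alternatives. Both count models were also run on simulated counts with the same dispersion, or spread between mice, for every gene. It was set below the common value of 0.0758 estimated from these libraries, so that run cannot show how the models perform here. Log2 CPM used a prior count of 2. Unless DESeq2 is named, each SE is the size of the edgeR log2 fold change divided by the square root of its F statistic. The members and gene lists were chosen with earlier results of these data known. Besides the 5 members, the text names the 6 nearest tested genes on each side of Atf4, the 3 most abundant or any called genes of each list, genes sharing 31-base words, and the 5 genes most like Atf4, Rps19bp1 and Cacna1i. Other named genes were chosen after their values were seen. Each mouse gave 1 library, intervals cover counting error only, and mice were not treated as pairs by replicate number.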

Additional observations from a re-analysis of the deposited data

How the results depend on the processing

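EdgeR called 1 gene with library totals or length-scaled counts as with TMM. It called 8 with no filter beyond 1 count and 0 with the replicate number as a block, and 0 with the name prefix as a block. DESeq2 called 121, limma on log2(TPM + 1) called 0 and on log2(TPM + 0.1) 2. Leaving out each library gave between 0 and 23 calls. The call of Cacna1i was thus absent without any 1 ATF4 BKO library. The most calls came without WT replicate 1. That fit leaves WT replicate 2, the library with the most skeletal muscle RNA, as the only WT library. Same-numbered libraries deviated from their group means with correlations of 0.047 and 0.2. Since the deviations of 2 WT libraries mirror each other, these values cannot show whether mice were paired. The replicate block left the log2 fold changes of Atf4, Rps19bp1 and Cacna1i at -2.62, -2.09 and 9.24. Outside the members, 0 genes within 1 Mb were called in any alternative. Of the ATF4 targets, DESeq2 called 10, the lower count filter 2, and the fits without 1 library between 0 and 1 (Fgf21, without WT replicate 1).

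Atf4 stayed between -3.18 and -2.58 and Rps19bp1 between -2.65 and -2.05 on the log2 scale over all alternatives. Cacna1i was 8.21 with length-scaled counts, 3.66 on log2(TPM + 1) and 6.40 on log2(TPM + 0.1), scales on which a pseudocount or the short forms behind WT replicate 1 weigh on a value near 0, and 8.61 to 10.2 without 1 library. Tab1 was -0.027 and -0.030 on the TPM scales and -0.043 to 0.38 without 1 library, and Syngr1 was -0.26 and -0.27 on the TPM scales and -0.099 to 0.044 without 1 library. The TPM scales moved the median of all genes to -0.12 and -0.17. As shares of TPM, the leading forms carried 98.8% of Atf4 in WT, 87.0% and 95.1% of Rps19bp1 in ATF4 BKO and WT, 75.4% of Cacna1i in ATF4 BKO, 80.2% and 79.4% of Tab1, and 95.3% and 96.5% of Syngr1. By Spearman's rho, 3, 4 and 1 of the 5 genes most like Atf4, Rps19bp1 and Cacna1i stayed among those at the highest rho. Of 429 alternative values of 33 other named genes, 35 had the other sign, none called. With 2 WT libraries, the WT spread rests on 1 pair, and Cacna1i ratios are limited by 9 WT counts.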
